A study of Mus musculus with 4 samples.

Results

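The intergenic MIXL1 peaks near protein-coding genes numbered 2221, out of 9598 peaks in the deposited list and 7791 on the 18 chromosomes considered (1 to 19 without 12). A peak was a member when its centre lay outside the span of every annotated gene of any kind, more than 1 kb and at most 100 kb from the nearest end of a protein-coding gene. Members made up 28.5% of the peaks on these chromosomes, and the edges of 61 of them reached into a gene although the centre did not. The other 5570 peaks there were 3439 with a centre inside a protein-coding gene, 827 inside a noncoding gene only, 568 within 1 kb of a protein-coding gene end and 736 intergenic peaks over 100 kb away. Positions are in mm10, and genes come from the NCBI RefSeq table of GRCm38.p6, the same assembly.

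The peaks came from chromatin immunoprecipitation followed by sequencing (ChIP-seq) of epiblast stem cells (EpiSC) of the mouse, which are pluripotent cells in culture that resemble the epiblast after implantation. The ChIP group had 2 libraries precipitated through a FLAG tag on MIXL1 with the anti-FLAG M2 antibody, and the input group had 2 libraries of chromatin without an antibody. Both groups came from lines with inducible FLAG-Mixl1, kept on irradiated mouse fibroblasts with bFGF at 10 ng/mL and activin A at 20 ng/mL, then grown for 2 days as embryoid bodies in serum, the last 24 h of them with doxycycline at 1 µg/mL. MIXL1 was therefore supplied from an induced gene in both groups, and cells without doxycycline were not analysed here. The deposited list holds the positions of peaks with no score, and 1 list covers all 4 libraries, so depth is unknown and no value below has a replicate error.

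MIXL1 is a homeodomain transcription factor of the paired type, made in the primitive streak, the site of gastrulation, where it takes part in the formation of mesoderm and endoderm. Homeodomains of this class bind DNA with the core TAAT, and paired-type proteins can bind as dimers to a pair of inverted cores. Many factors of this kind occupy sequence between genes, where enhancers lie, as well as promoters. An enhancer may act on a gene other than the nearest one, so the nearest gene given here is a matter of position only.

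The rule keeps members over 1 kb from the ends of protein-coding genes, but it sets no such distance from noncoding genes. Of the 2221 members, 26 touched a RefSeq promoter window (250 bases before to 50 after a gene's start), and all 26 genes concerned were long noncoding RNA (lncRNA) genes. The table of windows gave no strand for any tRNA, snRNA, snoRNA, miRNA or pseudogene within 1 kb of a member. Such genes may have had no window, so this count does not compare kinds of gene. The stretches shared by peak and window show the actual sequence under members. They are printed 5′ to 3′ on the gene's strand from the RefSeq promoter table of GRCm38.p6, with each TAAT core or its reverse complement ATTA in capitals. The first 4 hold the palindrome TAATTA, in which the core and its complement overlap. They belong to Platr22 (chr1:136695961-136696164 on the plus strand), Gm34657 (chr2:75768581-75768880 on the plus strand), Gm33033 (chr2:167877582-167877881 on the minus strand) and Gm13853 (chr6:33992368-33992639 on the minus strand).
Platr22: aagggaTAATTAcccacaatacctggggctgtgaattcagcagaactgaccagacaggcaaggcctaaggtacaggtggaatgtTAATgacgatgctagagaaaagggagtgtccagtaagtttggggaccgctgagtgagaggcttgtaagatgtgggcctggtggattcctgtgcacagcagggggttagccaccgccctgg
Gm34657: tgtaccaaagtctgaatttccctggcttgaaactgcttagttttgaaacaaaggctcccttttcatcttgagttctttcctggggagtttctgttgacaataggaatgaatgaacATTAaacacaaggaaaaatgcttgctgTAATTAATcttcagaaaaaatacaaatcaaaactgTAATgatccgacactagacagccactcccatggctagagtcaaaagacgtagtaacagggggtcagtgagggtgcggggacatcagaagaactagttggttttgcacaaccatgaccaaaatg
Gm33033: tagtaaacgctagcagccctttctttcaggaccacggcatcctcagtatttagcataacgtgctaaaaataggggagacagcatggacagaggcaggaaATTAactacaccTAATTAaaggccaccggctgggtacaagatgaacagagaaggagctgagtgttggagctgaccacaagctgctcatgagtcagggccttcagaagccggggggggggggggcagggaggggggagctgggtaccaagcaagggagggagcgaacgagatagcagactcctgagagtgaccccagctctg
Gm13853: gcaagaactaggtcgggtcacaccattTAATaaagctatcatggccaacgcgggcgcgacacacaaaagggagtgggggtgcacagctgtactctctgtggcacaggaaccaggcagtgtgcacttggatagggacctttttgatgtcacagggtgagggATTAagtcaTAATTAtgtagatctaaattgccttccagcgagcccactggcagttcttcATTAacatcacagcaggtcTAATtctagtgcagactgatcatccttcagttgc

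The next stretch is one in which inverted cores lay 3 bases apart, an arrangement that paired-type dimers can bind. The stretch of Gm42322, not printed here, held inverted cores 2 bases apart. Gm42808 (chr5:140549687-140549958 on the minus strand), nearest to Grifin, held the spacing of 3.
Gm42808: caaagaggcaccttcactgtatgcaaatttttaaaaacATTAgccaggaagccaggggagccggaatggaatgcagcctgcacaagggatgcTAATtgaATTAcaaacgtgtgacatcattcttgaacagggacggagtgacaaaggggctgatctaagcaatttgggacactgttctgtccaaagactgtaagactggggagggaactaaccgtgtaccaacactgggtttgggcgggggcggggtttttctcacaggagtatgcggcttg

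The last pair is shown for its neighbours, both genes of the lists described below. 9030622O22Rik (chr2:148040703-148040763 on the minus strand) starts beside Foxa2, which encodes a forkhead factor of the endoderm, and the 61 shared bases held no core. Gm15831 (chr5:77122403-77122702 on the minus strand) starts beside Hopx, a homeodomain-only gene of the developing heart, and held 3 cores.
9030622O22Rik: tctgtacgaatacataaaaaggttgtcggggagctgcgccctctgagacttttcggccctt
Gm15831: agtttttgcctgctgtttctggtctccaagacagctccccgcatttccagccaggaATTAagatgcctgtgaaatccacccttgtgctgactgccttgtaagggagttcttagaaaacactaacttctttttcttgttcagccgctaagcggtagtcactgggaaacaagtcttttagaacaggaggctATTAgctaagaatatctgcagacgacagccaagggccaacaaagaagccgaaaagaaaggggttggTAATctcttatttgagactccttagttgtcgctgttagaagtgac

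Motifs were searched on both strands over 1 whole window per gene, which was the window sharing the most bases with the peak for the 26 touched genes (33 windows were touched in all) and the first listed for the other promoters. TAATTA was present in 5 of the 26 (19.2%), against 6.39% of 8839 noncoding promoters and 5.31% of all 27025 promoters. In the part shared with the peak it was present in 4. The bare core TAAT was in 21 of 26 (80.8%), and in the shared part of 20, against 68.8% of noncoding and 58.3% of all promoters. TAATNNATTA and TAATNNNATTA were in 1 window each (3.85%), against 0.49% and 0.701% of noncoding and 0.403% and 0.488% of all promoters. The spacings of 0, 1, 4 and 5 bases (TAATATTA, TAATNATTA, TAATNNNNATTA and TAATNNNNNATTA) were in none. The same 4 spacings occurred in 0.52%, 0.679%, 0.464% and 0.713% of noncoding promoters, and in 0.433%, 0.625%, 0.411% and 0.488% of all promoters. The outward arrangement ATTANNNTAAT was in none of the 26, in 0.577% of noncoding and in 0.503% of all promoters.

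Among sequences that other factors of early development bind, the Sox letters ACAAAG were in 12 of the 26 (46.2%), against 22.4% of noncoding and 18.7% of all promoters. They were in the part shared with the peak at 10. AGATAA, bound by Gata factors, was in 3 (11.5%), against 14.0% of noncoding and 11.4% of all promoters. ATCAAAG, bound by TCF, was in 2, against 4.62% and 3.72%. TGTTTAC, bound by Fox proteins, was in 1, against 4.72% and 3.55%. ATGCAAAT, bound by Oct proteins, was in 1, against 1.88% and 1.75%. GTCTAGAC (Smad) and AGGTGTGA (T-box) were in none, against 0.215% and 1.48% of noncoding and 0.211% and 1.27% of all promoters. In all, 16 motifs were searched at 26 genes, some share letters, and no test was made. These genes stand for 26 of 2221 members, because sequence at the other members was not used here.

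Members were short. Widths ran from 240 to 7566 bp, with a median of 479 bp and quartiles at 347 and 707 bp, against a median of 473 bp for the other peaks. At least 1 kb of width was reached by 270 of 2221 members (12.2%), against 609 of 5570 other peaks (10.9%). The difference of 1.22 percentage points (95% interval -0.32 to 2.85) was not past the threshold of 0.05 (Fisher's exact test, two-sided, Benjamini-Hochberg adjusted over 4 tests, p = 0.132). Against the 736 intergenic peaks over 100 kb away, of which 14.7% were this wide, the difference was -2.52 points (-5.55 to 0.25, adjusted p = 0.114, same exact test).

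The widest member measured 7566 bp and lay 79.4 kb on the 5′ side of Qrfprl (chromosome 6, 65298089 to 65305654). The next were 3367 bp at 40.1 kb from Orc5, a subunit gene of the origin recognition complex, 3238 bp at 23.0 kb from the zinc finger gene Zfp763, and 3148 bp at 11.7 kb from Kbtbd12. Those from the fifth to the tenth ran from 2838 to 2501 bp, nearest to 4931417E11Rik, BC051142, the chemokine receptor gene Ccr1, Tdpoz4, the DNA repair gene Mgmt and Cdyl2. None of the 10 nearest genes is on a developmental list used here. Of all 2221 members only 100 were nearest to a gene of these lists, so the absence among 10 says little.

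Another peak of any class lay within 10 kb of 608 members (27.4%), against 148 of the 736 intergenic peaks farther from genes (20.1%). This difference of 7.27 points (95% interval 3.72 to 10.6) passed (Fisher's exact test, adjusted p = 0.000308). By the same exact test it did not pass without 1-Mb windows that hold 20 or more peaks (2.29 points, adjusted p = 0.272) or without predicted protein-coding genes (3.03 points, adjusted p = 0.2). Nor did it pass by the exact test without tandem gene families (3.29 points, adjusted p = 0.144) or with the wider 50% of the peaks (4.62 points, adjusted p = 0.206). Against the other 5570 peaks together, of which 25.3% had such a neighbour, the difference was 2.04 points (-0.11 to 4.24, adjusted p = 0.114, exact test). Since peaks lie in clusters, the p-values come out smaller than separate loci would make them, and they cover the counting of peaks in 1 list only. A neighbour could be a peak of any class, and intergenic peaks were sparser beyond 100 kb (1.37 per Mb) than members were (3.79 per Mb). The comparison with the far class does not separate this density from closer spacing. At the other end, 631 of the 2221 members had no other peak within 100 kb, a value not given here for the other peaks.

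Distance from the gene was set by the rule, so its spread is a description. The median distance was 19.004 kb, with quartiles of 7.12 and 43.3 kb. The members nearest to the limits lay at 1.001 and 99.946 kb, and the intergenic peaks just outside them at 0.991 and 100.077 kb. The rule admitted 586.59 Mb of sequence, which is 25.7% of the span of the 18 chromosomes, so members averaged 3.79 per Mb. Over all members, density was lower in each bin farther out. It was 4.33 per Mb at 1 to 5 kb (95% Poisson interval 3.91 to 4.78), 4.16 at 5 to 10 kb, 3.96 at 10 to 20 kb, 3.66 at 20 to 50 kb and 3.25 at 50 to 100 kb (2.96 to 3.56). Beyond 100 kb, intergenic peaks numbered 1.37 per Mb (1.27 to 1.47). Assembly gaps were not removed from the sequence counted, and their part in the lower value beyond 100 kb was not tested.

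The side of the gene could be told for 1745 members, since the strand of 15869 of 19882 protein-coding genes (79.8%) was given. The 5′ side held 909 members at 3.73 per Mb (3.49 to 3.98) and the 3′ side 836 at 3.93 per Mb (3.67 to 4.21), so the intervals overlapped. At 1 to 5 kb the 5′ side had 3.65 per Mb (3.06 to 4.33) and the 3′ side 4.79 (4.09 to 5.57), and at 50 to 100 kb they had 3.55 (3.08 to 4.08) and 3.17 (2.69 to 3.70). In none of the 5 distance bins did the intervals of the sides separate. From the nearest bin to the farthest, the 5′ side had 3.65, 3.90, 3.86, 3.74 and 3.55 per Mb, with no fall at each step. The 3′ side had 4.79, 4.61, 4.14, 3.59 and 3.17, and members of unknown side 4.80, 3.87, 3.84, 3.64 and 2.86.

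**Figure D1:**
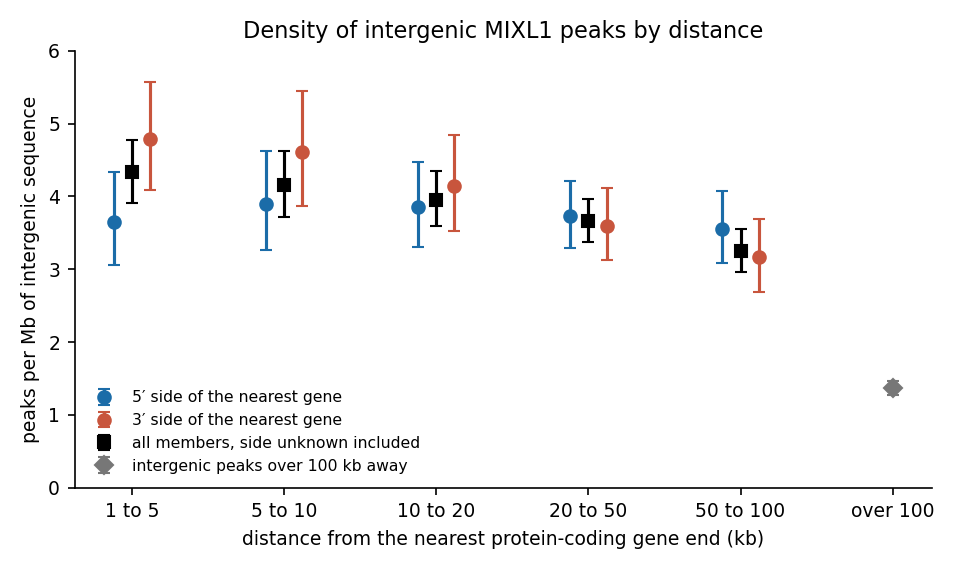
Peaks per Mb of intergenic sequence (vertical axis) by distance in kb from the nearest protein-coding gene end (horizontal axis, bins), for members on the 5′ side (blue), on the 3′ side (red) and all members (black), and for intergenic peaks over 100 kb away (grey). Bars are 95% Poisson intervals of counting, and the black points run from 4.33 at 1 to 5 kb to 3.25 at 50 to 100 kb, above 1.37 beyond 100 kb.

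Chromosome 17 had 187 members at 7.07 per Mb (6.09 to 8.16) and chromosome 16 had 58 at 2.57 (1.95 to 3.32), the highest and the lowest of the 18. Chromosomes 11 and 4 followed chromosome 17, with 5.09 and 5.02 per Mb. Dense 1-Mb windows held 70 of the chromosome 17 members, and without members in such windows that chromosome had 4.42 per Mb (3.66 to 5.30), below the 5.06 (4.28 to 5.94) of chromosome 11. Chromosome 3 then had 2.32 (1.88 to 2.84), below the 2.57 of chromosome 16, so neither end of the order holds without these windows. The sequence of the windows was kept in these densities.

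The nearest gene of any kind was noncoding for 1199 members (54.0%). Since the rule bars the 1 kb beside protein-coding ends only, it partly sets this share, and the same share of the admitted sequence is not given. How close members outside noncoding genes came to the ends of those genes was not used by the rule. Within 1 kb of a noncoding gene end there were 129 members at 6.34 per Mb (5.29 to 7.54), against 2092 at 3.69 per Mb (3.54 to 3.86) in the rest of the admitted sequence. By kind of gene, there were 73 members at 7.54 per Mb beside lncRNA genes and 22 at 2.62 per Mb (1.64 to 3.97) beside pseudogenes, which are mostly untranscribed copies of genes. The classes were examined after the overall values were known, the kinds other than lncRNA genes and pseudogenes were split because their common density was high (34 members, 15.0 per Mb, transcribed pseudogenes included), and 8 kinds of gene were examined.

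Transfer RNA (tRNA) genes, short genes read by RNA polymerase III, had the highest density of the 8 kinds. Of 225 tRNA genes with admitted sequence within 1 kb, 18 (8%) had a member there, against 73 of 6402 lncRNA genes (1.14%). These 18 members gave 61.6 per Mb (36.5 to 97.3) of 0.292 Mb, which was 16.7 times the density away from noncoding genes (9.86 to 26.4). They lay on 9 chromosomes beside 12 protein-coding genes, so several sit in one cluster of tRNA genes. The intervals count the 18 as separate, although 9 of them had another peak within 10 kb. In 15 of the 18 the peak reached over the tRNA gene itself, with the centre a median of 0.117 kb from its end. With the whole peak required to be outside genes, these 15 drop out by construction and 3 members remained, 2.78 times the density elsewhere (0.573 to 8.14). The members at tRNA genes had a median width of 629.5 bp, and none was in a 1-Mb window with 20 or more peaks. tRNA genes come as near-identical copies, and the part of reads that map to several copies was not tested.

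Examples show the size of these sites. Beside Osbp on chromosome 19, peaks of 336, 783 and 1088 bp had centres 0.082, 0.042 and 0.102 kb from n-TFgaa6, n-TKctt29 and n-TVtac1, which are RefSeq's names for genes of phenylalanine, lysine and valine tRNAs. Beside Abt1 on chromosome 13, peaks of 940, 917 and 574 bp lay 0.533, 0.384 and 0.204 kb from n-TVaac2, n-TAagc7 and n-TYgta7. Single sites included a 277 bp peak at n-TDgtc9 near Aurkb and a 437 bp peak at n-TRacg3 near Trim55. Small nuclear RNA (snRNA) genes, which encode RNAs of the splicing machinery, had 7 members at 11.5 per Mb (4.63 to 23.7), among them a 761 bp peak at Rnu11 and a 1009 bp peak at Rnu2-10. The snoRNA, miRNA and transcribed pseudogene classes had 3, 2 and 4 members and the misc_RNA class none, and their Poisson intervals all included 3.69 per Mb.

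At lncRNA genes of known strand members were denser at the start than at the far end. Upstream of starts, 35 members gave 10.9 per Mb (7.59 to 15.2), and beyond the far ends 11 members gave 2.74 per Mb (1.37 to 4.90). The density at starts was 2.95 times that away from noncoding genes (2.05 to 4.12). It was 1.43 times (0.834 to 2.30, 17 members) with whole peaks outside genes, which again removes by construction the peaks that reach over the start. Over 5 kb from any protein-coding gene the values were 9.93 per Mb at starts and 2.83 at far ends. A further 27 members lay beside lncRNA genes whose strand was not given, at 11.0 per Mb (7.26 to 16.0), a value close to that at starts although this class mixes both ends. Named examples were Platr22 and Platr9, whose symbols stand for pluripotency-associated transcripts, with centres 0.255 and 0.090 kb from the start, and 9030622O22Rik beside Foxa2 at 0.368 kb. Neat1, the lncRNA of nuclear paraspeckles, had a 259 bp member 0.631 kb from its span.

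**Figure D2:**
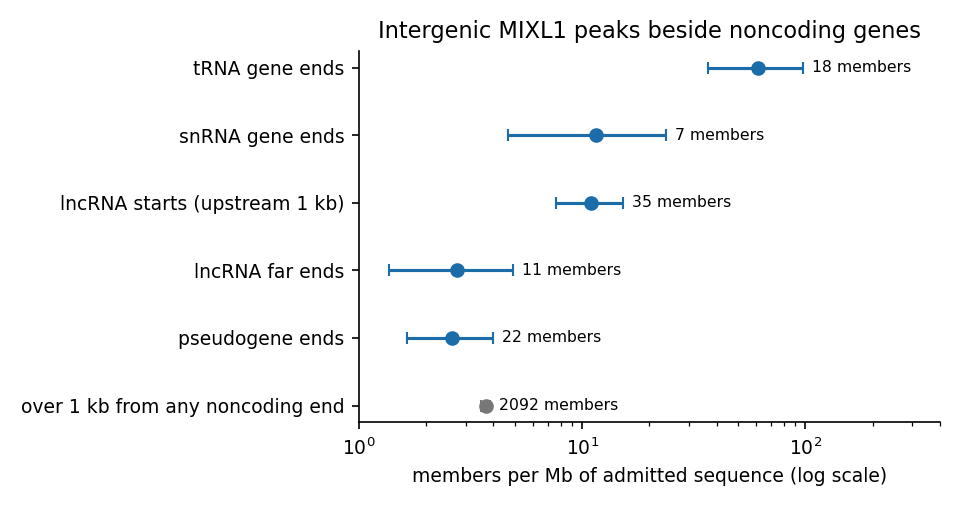
Members per Mb of admitted sequence within 1 kb of noncoding gene ends (horizontal axis, log scale), by kind of gene, with 95% Poisson intervals and the number of members. The 18 members at tRNA genes sit at 61.6 per Mb, those upstream of lncRNA starts at 10.9, and the 2092 members away from noncoding genes at 3.69 (grey).

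Counted by gene, 1641 of 19882 protein-coding genes (8.25%) were the nearest one to at least 1 member. A single member was held by 1304 of them, 229 had 2, 62 had 3 and 46 had 4 or more. The 13 developmental lists together, 299 genes on these chromosomes, had 76 with a member (25.4%, Wilson interval 20.8 to 30.6), against 7 of 112 genes of 4 control lists (6.25%, 3.06 to 12.3). Developmental genes also had more intergenic sequence around them, with a median of 44.0 kb admitted, against 7.20 kb for control genes and 13.4 kb for all protein-coding genes. Per Mb of that sequence, developmental genes had 5.79 members (100 members, 4.71 to 7.05), control genes 3.68 (1.48 to 7.58) and all protein-coding genes 3.79 (3.63 to 3.95). No test was made of a list, since the lists were written with earlier results of these data known.

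**Figure D3:**
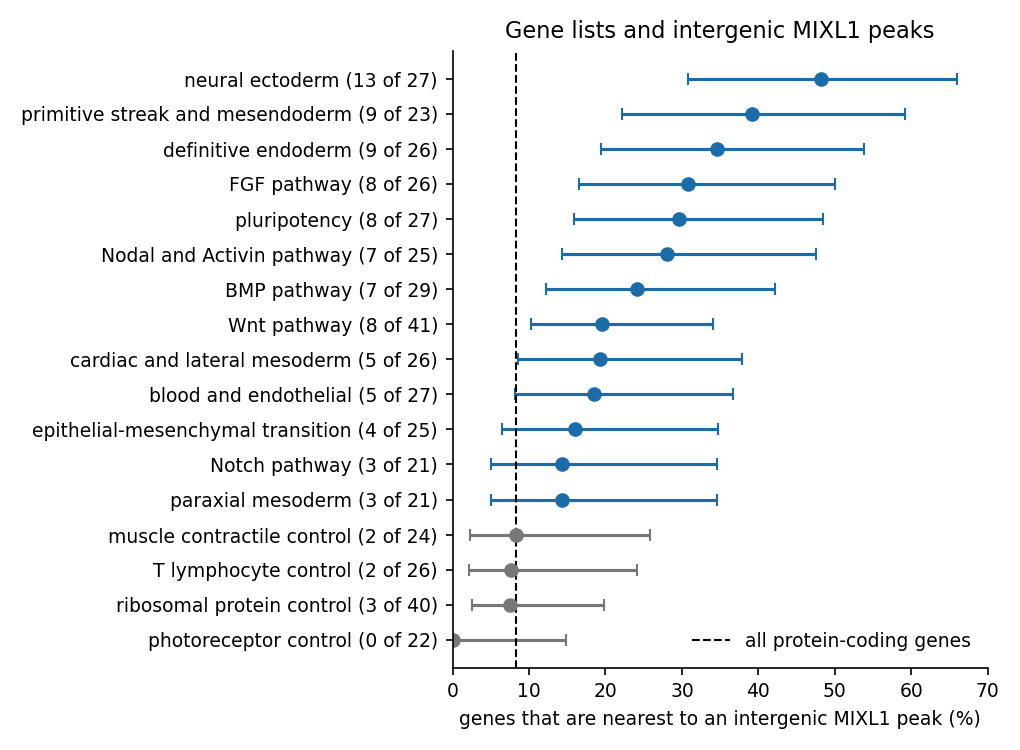
Percent of the genes of each list that are the nearest protein-coding gene of a member (horizontal axis), with 95% Wilson intervals, for 13 developmental lists (blue) and 4 control lists (grey). The dashed line is the 8.25% of all protein-coding genes, and neural ectoderm, with 13 of 27 genes, sits farthest from it.

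Set beside genes with like amounts of intergenic sequence, developmental genes had a higher share than all protein-coding genes in 5 of 6 bins. With 20 to 50 kb admitted, 19 of 65 developmental genes had a member (29.2%), against 435 of 4010 protein-coding genes (10.8%). With 5 to 20 kb it was 10 of 64 (15.6%) against 291 of 5698 (5.11%), and with 100 to 150 kb 21 of 56 (37.5%) against 275 of 1092 (25.2%). The bin of 50 to 100 kb had 18 of 68 (26.5%) against 501 of 2349 (21.3%), and that of 150 to 200 kb 8 of 13 (61.5%) against 101 of 452 (22.3%). With up to 5 kb there was 0 of 26 against 38 of 3788 (1.00%). Control genes had a member at 1 of 32 with up to 5 kb, 1 of 42 with 5 to 20 kb and 1 of 14 with 20 to 50 kb. They had one at 2 of 7 with 50 to 100 kb and 2 of 4 with 100 to 150 kb, and none had more sequence. In the bins of up to 5, 50 to 100 and 100 to 150 kb the control share was above the developmental one, on 1 or 2 genes.

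**Figure D4:**
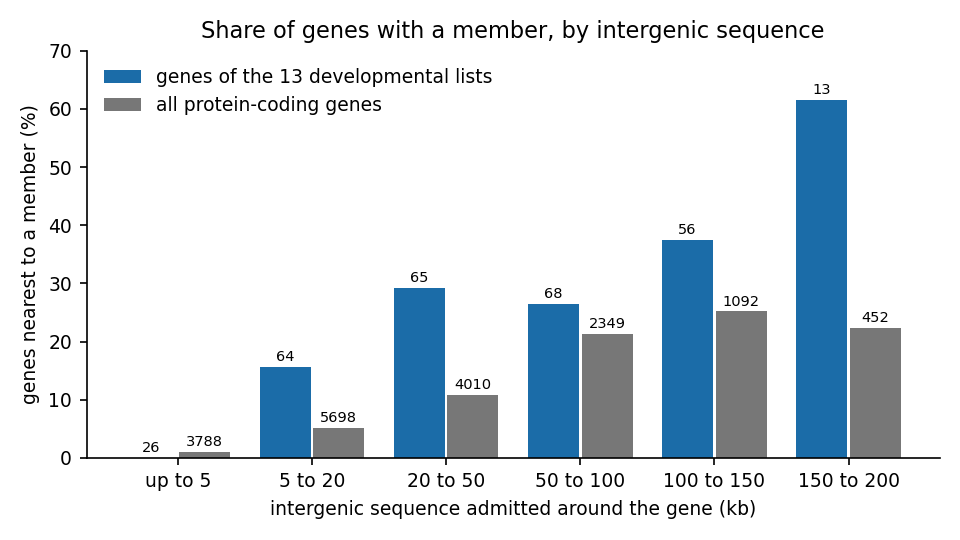
Percent of genes with a member (vertical axis) by the intergenic sequence admitted around the gene in kb (horizontal axis), for genes of the 13 developmental lists (blue) and all protein-coding genes (grey), with the number of genes above each bar. The blue bar is the higher one in every bin but that of up to 5 kb, where 0 of 26 developmental genes had a member.

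Nodal signalling patterns the epiblast: the ligand Nodal acts through activin receptors with the co-receptor Tdgf1, and Lefty proteins inhibit it. Of 25 genes of this pathway, 7 had a member (28.0%, 14.3 to 47.6), at 7.42 members per Mb (3.20 to 14.6). Nodal (chromosome 10, 61417972 to 61425338) had 2, at 61405548 to 61406425 and 61413161 to 61413641, whose centres lay 11.986 and 4.571 kb on its 5′ side. Tdgf1 had 1 at 1.48 kb on the 5′ side, and Lefty2 had 1 at 4.00 kb. The TGF-beta receptor gene Tgfbr1, the co-receptor gene Cfc1, the ligand subunit gene Inhbb and the repressor gene Tgif1 had 1 each, at 9.56, 15.3, 85.5 and 18.9 kb. The activin receptor genes Acvr1b, Acvr1c, Acvr2a and Acvr2b had no member. Lefty1 had no member and only 0.942 kb of admitted sequence, and its single peak lay inside a noncoding gene.

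Primitive streak and mesendoderm genes had a member at 9 of 23 (39.1%, 22.2 to 59.2) and the highest density of the lists, 12.4 per Mb (6.20 to 22.2). Lhx1, which encodes a LIM-homeodomain factor of the streak's anterior end (chromosome 11, 84517975 to 84525534), had 3 members, all on the 5′ side, at 23.9, 61.8 and 79.1 kb and of 588, 541 and 1132 bp. Mixl1 itself had 1, 6.65 kb from its span. Fgf8 had 1 at 28.5 kb, Hhex, a homeobox gene of anterior endoderm, 1 at 4.22 kb, Evx1 1 at 8.70 kb, and Cyp26a1, which degrades retinoic acid, 1 at 38.7 kb. Eomes, the T-box gene of the streak, was the nearest gene of 5 peaks, of which 1 was a member, 88.0 kb on the 5′ side, and 2 lay within 1 kb of the gene's ends. T had no peak of any class nearest to it, in 40.3 kb of admitted sequence.

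Of the definitive endoderm list, 9 of 26 genes had a member (34.6%, 19.4 to 53.8), at 10.2 per Mb (5.43 to 17.5), and 5 genes had one with the wider 50% of the peaks. Of the 9, 5 (Lhx1, Foxa2, Hhex, Otx2 and Eomes) are also on the streak list. Cxcr4, a chemokine receptor gene of endoderm cells, had 3 members, at 55.3 and 26.5 kb on the 3′ side and 62.7 kb on the 5′ side. Foxa2 had 1, of 358 bp, 2.00 kb on the 3′ side at the start of 9030622O22Rik. Otx2, a homeobox gene of the anterior epiblast and head, had 1 at 40.1 kb on the 3′ side. Gata4 had 1 at 8.78 kb, Trh 1 at 6.83 kb and Tmprss2 1 at 14.1 kb. Sox17 had no peak of any class nearest to it, in 84.3 kb of admitted sequence, and Cer1 no member but 1 peak within 1 kb of its end.

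Neural ectoderm genes had the highest share, 13 of 27 (48.1%, 30.7 to 66.0), at 9.31 per Mb (5.32 to 15.1), and 8 of the 27 had one over 5 kb away. En1, a homeobox gene of the midbrain-hindbrain boundary, had 2 members at 4.15 and 2.30 kb on its 5′ side, out of 7 peaks nearest to it. Pax2, a paired box gene of the same region, had 2 at 76.7 and 50.04 kb on the 5′ side. Sox1, a marker gene of neuroectoderm, had 1 on each side, at 55.6 kb (5′) and 82.6 kb (3′). Hesx1, Neurog2, Gbx2, Irx1, Irx3, Lhx5, Otx2, Lhx2 and Pou3f3 were among those with 1 each, and the members of Hesx1, Neurog2 and Gbx2 lay at 4.04, 4.71 and 4.96 kb.

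The FGF list had 8 of 26 genes with a member (30.8%, 16.5 to 49.99) and 13 members, at 7.33 per Mb (3.90 to 12.5). With the wider 50% of the peaks the count was 2 of 26. The ligand gene Fgf8 and the adaptor gene Frs2 had 1 member each. Among genes whose products dampen the pathway, Spred2 had 3 members, Spred1, Spry1 and Dusp4 had 2 each, and Spry2 and Spry4 had 1 each, while Dusp6 and Il17rd had none, although they were nearest to 5 and 6 peaks of other classes. The members nearest to a gene were those of Spred1 at 1.35 kb and Spred2 at 4.86 kb, both on the 5′ side. In the BMP list 7 of 29 genes had a member (24.1%, 12.2 to 42.1) with 13 in all, and the count was 4 with the limit of 50 kb and 3 with the wider 50% of the peaks. Nog, a BMP antagonist, had 3 at 93.9, 91.1 and 23.6 kb, Id4 had 3 on the 3′ side at 42.0 to 85.2 kb, and Msx1, a homeobox target gene, had 3 on the 5′ side at 76.8 to 93.6 kb. The ligand genes Bmp4 and Bmp2 had 1 each at 66.3 and 70.4 kb, and Id1 and Id3 had 1 each.

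Of 41 Wnt genes 8 had a member (19.5%, 10.2 to 34.0), a share above the 8.25% of all protein-coding genes, while the density of 3.79 per Mb (1.73 to 7.19) was that of all protein-coding genes. With the wider 50% of the peaks 4 of these genes had a member. Lef1, a nuclear effector of the pathway, had 2 on its 5′ side at 69.6 and 25.2 kb, and Axin2, a feedback inhibitor, had 1 at 1.61 kb on the 5′ side. The secreted inhibitor genes Dkk1, Dkk3 and Sfrp2, the receptor genes Fzd8 and Fzd10 and the effector Tcf7l2 had 1 each. The Notch list had 3 of 21 genes (14.3%, 4.98 to 34.6), with 3 members at the ligand gene Jag1, at 37.2, 94.9 and 99.8 kb on the 5′ side, and 1 each at Maml1 and Notch3. Counting both flanking genes gave 5 Notch genes.

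Pluripotency genes had a member at 8 of 27 (29.6%, 15.9 to 48.5), at 5.35 per Mb (2.31 to 10.5), and the count was 4 both over 5 kb away and with the wider 50% of the peaks. Nanog, a homeobox gene of the core network, had 1 at 4.84 kb on the 5′ side (chromosome 6, 122702407 to 122702898), and Lin28a had 1 at 1.64 kb on the 5′ side. Nr5a2, Klf5, Dppa3 and Sall1 had 1 each at 3.27, 14.7, 29.3 and 5.93 kb. Pou5f1 had no peak nearest to it in 10.3 kb of admitted sequence. Sox2 had 3 peaks nearest to it, all inside a noncoding gene and so not members.

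Lists of later mesoderm had shares of 14.3% to 19.2%. Blood and endothelial genes had 5 of 27 (18.5%, and 3 of 27 with the wider 50% of the peaks) at 6.23 per Mb (2.29 to 13.6), with 2 members at Cdh5, the cadherin gene of endothelium, and 1 at Kdr at 35.4 kb. Cardiac and lateral mesoderm genes had 5 of 26 (19.2%) at 4.19 per Mb (1.81 to 8.25), a count that was 2 with the limit of 50 kb, 3 with the wider 50% and 8 with only protein-coding spans barred, with 2 at Prrx1 and a 1571 bp member at Hopx, 7.87 kb on its 5′ side. Paraxial mesoderm genes had 3 of 21 (14.3%), with 1 each at Hoxb1, Uncx and Tbx18, and a density of 2.32 per Mb (0.478 to 6.77). Genes of the epithelial-mesenchymal transition had 4 of 25 (16.0%), with 1 each at Itgb1, Snai2, Zeb1 and Tjp1, and 2.51 per Mb (0.684 to 6.42). The control lists had 3 of 40 ribosomal protein genes, 2 of 24 muscle genes, 2 of 26 T lymphocyte genes and 0 of 22 photoreceptor genes. Their densities were 6.26 per Mb (1.29 to 18.3) for ribosomal protein, 5.52 (0.669 to 19.9) for muscle, 2.82 (0.341 to 10.2) for T lymphocyte and 0 (up to 10.5) for photoreceptor genes, so those of the ribosomal protein and muscle lists were as high as that of some developmental lists, on 3 and 2 members. Over the 4 control lists the count of 7 was 1 with the wider 50% of the peaks and 14 with both flanking genes counted. The density intervals of the streak, endoderm, neural and FGF lists lay above the 3.79 per Mb of all protein-coding genes, and those of the other 13 lists included it. The FGF interval began at 3.90, close to that value. These intervals count members as separate, although several lay at 1 gene, and they are no test of a list. Lists share genes, with 42 of 319 developmental genes on 2 or more.

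**Figure D5:**
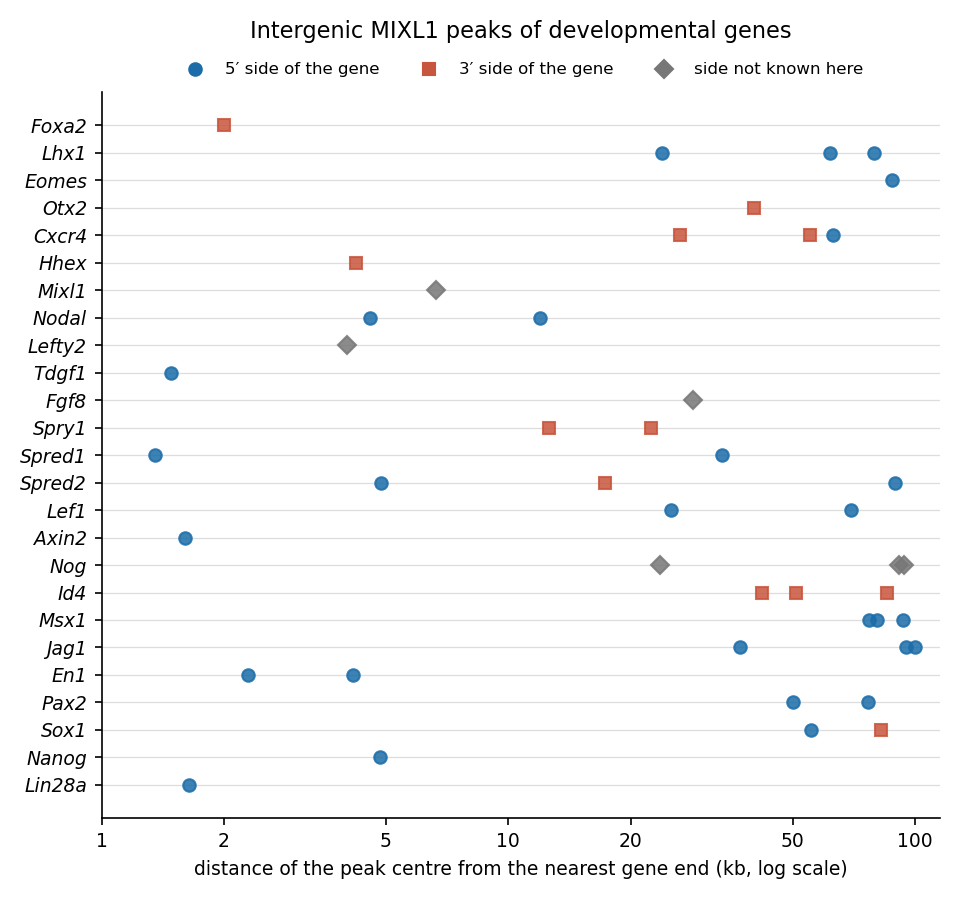
Distance of each member's centre from the nearest end of its gene (horizontal axis, kb, log scale) for 25 of the developmental genes named in the text, with the 5′ side in blue, the 3′ side in red and genes without a known strand in grey. Tdgf1, Spred1, Axin2 and Lin28a have a member at 1.35 to 1.64 kb on the 5′ side, while those of Lhx1, Msx1, Jag1 and Pax2 lie 23.9 to 99.8 kb away.

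The genes with the most members were of another kind. Gm4791 and Tdpoz4 had 18 each, Esp34 and Tdpoz3 had 12, Defa21 had 11, Mdga1 had 9 and Vmn2r32 and Vmn2r50 had 8, and Itln1 and Zfp640 had 7. Tdpoz genes encode proteins with TRAF and POZ domains, Defa genes are intestinal defensins, Vmn2r genes are receptors of the vomeronasal organ and Esp genes encode peptides that act as mouse pheromones. Many belong to families of similar genes in tandem. The 5 stretches between neighbouring protein-coding genes with the most members were Tdpoz4 to Tdpoz3 (14 in 28.5 kb), 4931429L15Rik to Gm4791 (13 in 679 kb), Tdpoz1 to Tdpoz4 (12 in 120 kb), Vmn2r49 to Vmn2r50 (11 in 45.1 kb) and AY761185 to Defa21 (11 in 80.8 kb).

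Tandem families (Vmn, Mup, Defa, Tdpoz, Spopfm, Esp, Raet1, H60, Cyp3a and Itln, chosen after these values were seen) were nearest to 155 members (6.98%). Of these, 84 (54.2%) lay in 1-Mb windows with 20 or more peaks, against 145 of the other 2066 members (7.02%). The families were chosen with the clusters already known, so this contrast follows in part from the choice and is no test. Of the 46 genes with 4 or more members, 16 were of these families and had 121 of the 273 members involved. The share of these families among all protein-coding genes is not given, so this count is not read as an excess. Without the families, 19.7% of members had another member within 10 kb, against 23.8% with them. How reads from near-identical copies were placed is not given in the sources used here, and its part in these clusters was not tested.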

How the data were processed

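The submitters' processing notes name MACS2, SAMtools, Bowtie2 and CASAVA 1.8.2, and mm10 as the build. The authors deposited 1 list of peaks (chromosome, start and end) for 2 ChIP and 2 input libraries. How replicates were pooled, whether the input was used, and the caller's threshold and filters are not given in the sources.

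Peaks were classed by their centre against the RefSeq gene table of GRCm38.p6, without 442 genes listed in the first 3 Mb of a chromosome. Strand came from the RefSeq promoter table. Densities are members per Mb of the sequence that the rule admits, measured exactly and with exact Poisson intervals. Shares have Wilson intervals, and differences of shares were tested with two-sided Fisher's exact tests, Benjamini-Hochberg adjusted over 4 tests. Intervals are at 95% and cover counting only. Peaks on chromosome 12 (1541), chromosome X (71) and other contigs (195) were left out by the rule. The planned motif search around peak centres needed genome sequence, which was not used here, so promoter windows were searched in its place.

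Members and gene lists were chosen with earlier results of these data known. Named genes are 17 chosen developmental genes, up to 3 genes of each list with the most members, the 10 genes and 5 stretches with the most members and the 10 widest members. Other list genes with a member, and the noncoding genes, were added after their values were seen. Some genes with a member are not reported here. The rule and the lengths were checked on simulated positions. Python 3.11.15, numpy 2.4.6, pandas 2.3.3, scipy 1.17.1, statsmodels 0.14.6 and matplotlib 3.10.9 were used.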

Additional observations from a re-analysis of the deposited data

How the results depend on the processing

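No paired analysis was possible because the ChIP and input libraries, which share replicate numbers, enter only through 1 joint list of peaks, and for the same reason no replicate could be left out. The 200-bp motif window was not run for lack of genome sequence. With the wider 50% of the peaks there were 1082 members, of which 24.95% were at least 1 kb wide, 19.4% had a peak and 17.01% a member within 10 kb, 4.48% of protein-coding genes had a member, and so did 44 of 299 developmental genes. The share of protein-coding genes with a member was 9.82% with only protein-coding spans barred, 6.85% with a limit of 50 kb, 6.86% with one of over 5 kb, 7.86% without dense windows and 12.3% with both flanking genes counted. Shares of members with a peak and with a member within 10 kb were 22.0% and 18.4% without dense windows, 23.4% and 19.7% without tandem families, and 55.2% and 42.2% within 50 kb. With only protein-coding spans barred the share with a member within 10 kb was 27.3%, and 22.6% of members reached 750 bp. The difference from other peaks in close neighbours passed with only protein-coding spans barred (4.86 points, adjusted p = 1.13e-05, Fisher's exact test), with the limit of 50 kb (3.02) and without chromosome 17 (2.97), and turned to -1.26 without tandem families, an alternative chosen after seeing the data. The difference from peaks over 100 kb away in close neighbours did not pass at 3.03, 4.62, 2.29 and 3.29 points, as given above. The width difference from other peaks passed with the limit of 50 kb (1.95), while that from peaks over 100 kb away passed without chromosome 17 (-3.26). With the limit of 50 kb the far class becomes all intergenic peaks over 50 kb away, which takes in the 462 members beyond that limit, and the width difference from it was 0.020. The causes were not tested. The density ratios at lncRNA starts and tRNA genes, added after seeing the data, fell to 1.43 and 2.78 with whole peaks outside genes and were 2.70 to 3.25 and 10.6 to 20.8 under the other 5 alternatives. The other 79 alternative values of the main results kept their direction and call, stayed within their interval or, for counts, stayed near the main count.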
